A study of Bos taurus with 6 samples.

Results

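The baseline transcriptome of untreated bovine embryos at the 8-cell stage was described from the control libraries of the series, 3 of its 6 libraries. Coding genes were ranked by their mean FPKM over the 3 controls, and 16847 of the 18862 genes in the files were coding. FPKM is the number of fragments per kilobase of transcript, scaled by the authors to the mapped fragments of the library. Genes were ranked on this scale. The part of transcript length, or of the use of polyadenylated RNA, in the levels was not tested. Untreated means cultured without GSKA, an inhibitor of lactate dehydrogenase A, in medium that held the same amount of the solvent DMSO as the treated group. The embryos of Bos taurus came from in vitro matured oocytes of slaughterhouse ovaries and in vitro fertilization, and their cumulus cells and zonae pellucidae were removed. The labels give "female" as the tissue and embryo as the cell type, and the files hold no separate cells although the method is named scRNA-seq. The study's methods describe its replicates as biological. How many embryos made up a library was not stated in the labels or the methods. GSKA libraries entered no value below except where the 6 libraries are named.

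A mammalian egg is loaded with RNA and protein during oocyte growth, and the first cleavages run on this store. In cattle the major wave of embryonic genome activation (EGA) falls around the 8-cell stage, when maternal RNA is cleared and the embryo's own genes are switched on. An embryo at the 8-cell stage therefore holds maternal and newly made transcripts side by side, and an RNA level alone does not say from which source a transcript came.

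The 3 controls differed little in how many coding genes they held and more in their mitochondrial content. Coding genes at 1 FPKM or more numbered 9940, 9778 and 9763 in control replicates 1, 2 and 3. Coding genes above 0 numbered 13285, 13754 and 14171. Mitochondrial genes of any type carried 13.2%, 6.05% and 6.74% of all FPKM, so that control replicate 1 stood apart from the others. Spearman's rho across the 16847 coding genes was 0.889 for replicates 1 and 2, 0.897 for replicates 1 and 3 and 0.909 for replicates 2 and 3. Genes are not independent replicates, and these correlations describe the libraries only. Values in control replicate 2 were lower as a whole, with coding FPKM sums of 540322, 481205 and 536077 in replicates 1, 2 and 3. Replicate 2 was the lowest for 52 of the 100 highest genes and for 406 of 900 genes at ranks 101 to 1000. A gene named below as lowest in replicate 2 is therefore not set apart by that alone. FPKM holds no read counts, so sequencing depth is unknown and counting error cannot be stated.

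By mean level, 10022 coding genes (59.5%) reached 1 FPKM, 4267 reached 10, 860 reached 100 and 61 reached 1000. The median coding gene lay at 1.91 FPKM. A level of 1 FPKM or more was found in all 3 controls for 8260 genes, in 2 controls for 1483, in 1 control for 1735 and in none for 5369. The transcriptome was concentrated on few genes. The 10 highest genes carried 16.3% ± 0.368 (SD, n = 3) of coding FPKM, the 100 highest 40.1% ± 1.20 and the 1000 highest 76.6% ± 0.337. Leaving out the mitochondrially encoded genes lowered the share of the 100 highest to 38.0%.

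**Figure D1:**
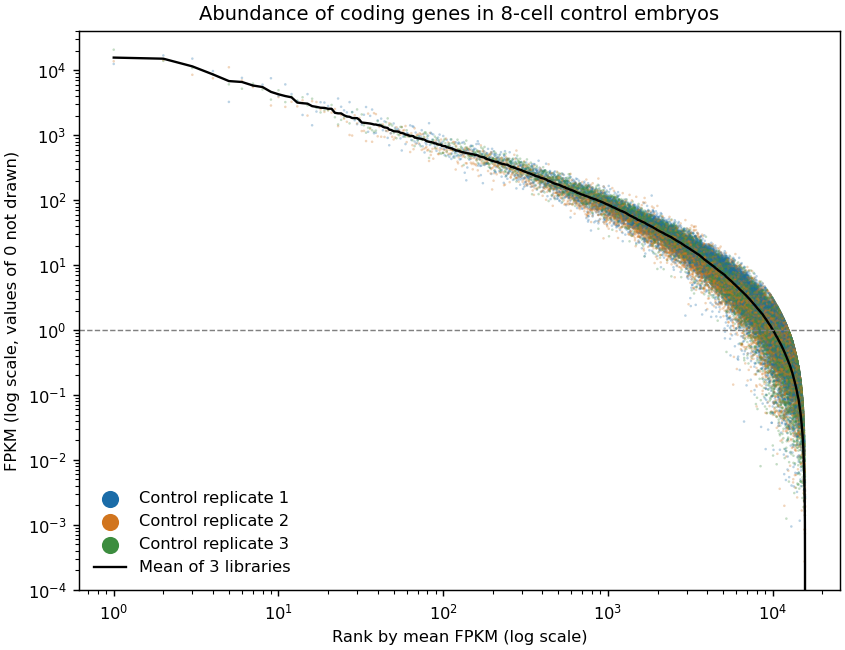
FPKM of each coding gene (y axis, log scale) against its rank by mean FPKM (x axis, log scale), with points for control replicates 1 to 3 and a black line for their mean. The dashed line marks 1 FPKM, which 10022 genes reach by their mean, and the points spread more widely around the line at high ranks.

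BTG4 and TMSB4X headed the ranking. BTG4 (ENSBTAG00000034346, chromosome 15, 21787553 to 21802341, minus strand, in the files' coordinates, whose genome build is not given) is an adaptor of the CCR4-NOT deadenylase that serves maternal mRNA clearance. It lay at 12543, 13799 and 20812 FPKM in control replicates 1, 2 and 3. The third replicate was the highest, and the gene carried 2.32%, 2.87% and 3.88% of coding FPKM. TMSB4X (ENSBTAG00000038488, chromosome X, 130698907 to 130701055, minus strand) encodes thymosin beta 4, which binds actin monomers, and lay at 16951, 14409.7 and 13997 FPKM. The ranges of these genes over the libraries overlapped, and TMSB4X ranked first when replicate 3 was left out. CKS2 (ENSBTAG00000001938, chromosome 8, 88791395 to 88796446, minus strand), a subunit of cyclin-dependent kinase complexes, followed with 15149, 8542 and 10849 FPKM, highest in replicate 1 and lowest in replicate 2.

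Below these, the 20 highest genes fell into a few functional groups. Mitochondrially encoded respiratory genes took 4 places, led by COX3, a cytochrome c oxidase subunit, at 9750.0, 7553 and 8679.6 FPKM. Cell cycle genes took 3 places, with PTTG1 (securin, the inhibitor of separase) at 4308, 3276 and 3944 and CKS1B at 3349, 2789 and 3431 FPKM after CKS2. Both were lowest in control replicate 2. Histone variants took 2 places. H2AZ1, for the variant H2A.Z, lay at 5753, 5526 and 6248 FPKM and H3-3B, for H3.3, at 4023, 3879.6 and 4932 FPKM. Replicate 3 was the highest for both. Ubiquitin and ubiquitin-like genes took 3 places. UBB, a polyubiquitin gene, lay at 3267, 11156 and 6087 FPKM, with replicate 2 above replicate 1 by 3.41-fold. UBL5 was more even, at 6029, 5471 and 5085 FPKM and within 1.19-fold. FAU, a fusion of a ubiquitin-like protein and ribosomal protein S30, lay at 7664, 6977 and 5212 FPKM and was lowest in replicate 3.

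The remaining places went to genes of RNA handling and iron storage and to genes with little annotation. HNRNPA1, a splicing factor, lay at 2056, 3457 and 3845 FPKM and was lowest in control replicate 1. FTL, the ferritin light chain, lay at 3191, 2294 and 2437 FPKM, and ERH, a small nuclear protein, at 2823, 2435 and 2432 FPKM. ERH was nearly level over the libraries, with a CV (SD as a percentage of the mean) of 8.78%. ENSBTAG00000047612 (chromosome 7, 16042405 to 16044281, minus strand) has no symbol in the files and lay at 4306, 2012 and 2892 FPKM. ENSBTAG00000049752 (chromosome 18, 48721559 to 48738180, minus strand) has none either and lay at 1426, 3349 and 3659 FPKM. Control replicate 1 was the highest for the former and the lowest for the latter. MGC137055, described in the files as uncharacterized, lay at 2319.6, 3254 and 2643 FPKM, with replicate 2 the highest.

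The order within the 20 highest genes was not fixed by these data, since in 19 of 19 neighbouring pairs the ranges over the 3 libraries overlapped. Left-out libraries moved COX1 to rank 13 at the lowest and ATP6 to rank 15 (both without replicate 1), HNRNPA1 to rank 17 and ENSBTAG00000049752 to rank 22 (both without replicate 3), and UBB to rank 9 (without replicate 2). Each library had its own 100 highest genes, of which 70 were common to all 3 and 133 occurred in at least 1. The edge of the 100 highest genes was likewise shallow. SERF2 and ENY2, the last of the 100, had means of 683.4 and 682.7 FPKM, and ENSBTAG00000053706 and BMP15, the next in rank, had means of 682.3 and 681.4 FPKM. UBB, TMSB4X, HNRNPA1, FAU and the histone genes belong to families with near-identical copies or processed pseudogenes. No source used here states how fragments shared by such copies were assigned, so these levels are uncertain in that respect.

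**Figure D2:**
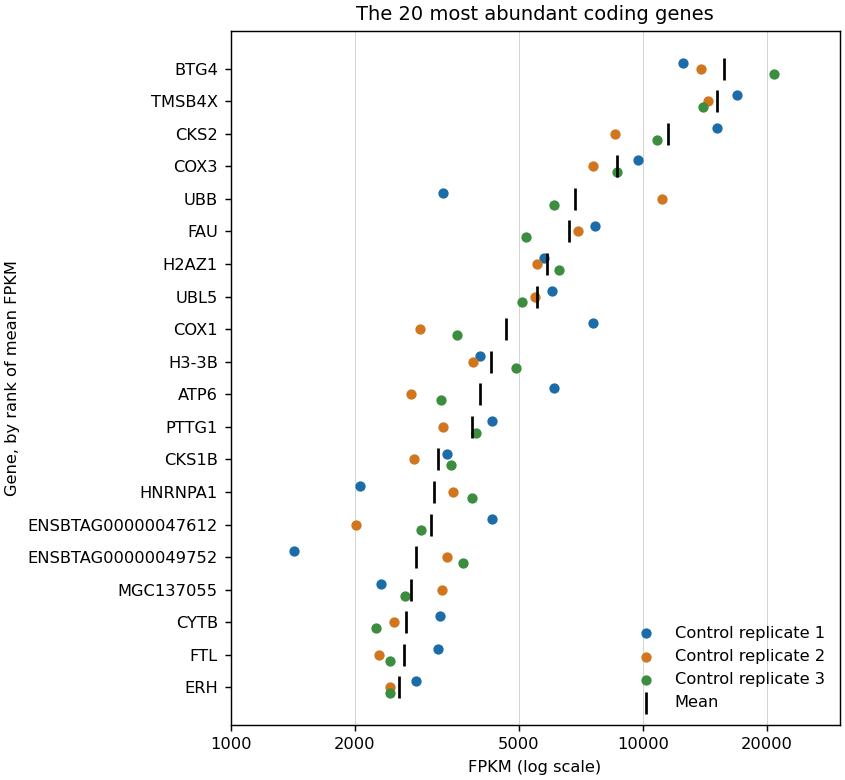
FPKM (x axis, log scale) of the 20 coding genes with the highest mean, with a point per control library and a black bar for the mean. BTG4 and TMSB4X lie above 12000 FPKM in every control, and the ranges of neighbouring genes overlap throughout.

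Maternal and oocyte genes were widely present. All 24 found members of a list of oocyte and maternal-effect genes had a mean of at least 1 FPKM, against 59.5% of all coding genes, and 13 of 24 ranked among the 1000 highest, against 5.94% of all coding genes. SOHLH1, BCL2L10, NLRP4 and OOSP1, also among the 28 genes listed, were not analysed here. The list was chosen with earlier results of these data known. Its found members carried 3.19%, 3.66% and 4.75% of coding FPKM in control replicates 1, 2 and 3. Most of the difference between these shares lay in BTG4, since the other members together carried 0.864%, 0.790% and 0.866%. The list also holds broadly expressed genes such as TRIM28, CTCF and SMARCA4, and an RNA level does not say whether a transcript was stored or newly made.

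Other members of the list were high as well. OOSP2, an oocyte-secreted protein, lay at 1348, 610.3 and 943 FPKM and DPPA3, which protects the maternal genome's methylation in the mouse zygote, at 1029.8, 436 and 849 FPKM. Both were lowest in control replicate 2. The oocyte growth factors BMP15 and GDF9 lay at 493, 671 and 880.3 and at 84.9, 80.1 and 125 FPKM. BMP15 exceeded GDF9 in every control, by 5.80- to 8.38-fold. ZAR1L, a relative of the RNA-binding zygote arrest protein ZAR1, lay at 426, 464 and 523 FPKM, and ZAR1 itself at 18.7, 12.2 and 10.3 FPKM, a ratio of 22.8 to 51.0. The oocyte linker histone gene H1-8 lay at 256, 436 and 342 and the chaperone gene NPM2 at 215, 362 and 208 FPKM, and replicate 2 was the highest for both.

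Regulators of meiosis and of stored RNA were found at lower levels. MOS, the kinase that holds the egg in metaphase, lay at 152, 164 and 110.4 FPKM. WEE2, the oocyte kinase that inhibits CDK1, lay at 108, 76.0 and 96.4 FPKM. CPEB1, which controls cytoplasmic polyadenylation, lay at 83.6, 125 and 174 FPKM, with control replicate 3 the highest. Transcription factors of the growing oocyte stood at the low end of the list. NOBOX, a homeobox factor, lay at 5.57, 2.72 and 3.45 FPKM. FIGLA, a factor for zona gene transcription, was listed at 0 in replicate 1 and lay at 4.55 and 4.42 FPKM in replicates 2 and 3. The lowest member was DDX4, a germ cell RNA helicase, at 3.65, 1.87 and 1.23 FPKM.

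The zona pellucida genes, which encode the egg coat, were still among the abundant transcripts. ZP4 was the highest, at 183, 577 and 618 FPKM. ZP2 lay at 69.3, 97.7 and 115 FPKM. ZP3, the main structural partner of ZP2, lay at 46.2, 137 and 91.3 FPKM. All were lowest in control replicate 1, and the list with the cortical granule protease gene ASTL (9.63, 7.59 and 9.19 FPKM) carried 0.0570%, 0.170% and 0.155% of coding FPKM. ZP1 was not analysed here.

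The subcortical maternal complex, an assembly under the membrane of the egg and early blastomeres, was uneven among its members. KHDC3L was the highest, at 47.7, 67.2 and 81.0 FPKM. OOEP lay at 37.5, 47.1 and 37.3 FPKM. PADI6, of the cytoplasmic lattices, lay at 18.9, 37.5 and 25.9 FPKM and was highest in replicate 2. The other members were lower. TLE6 lay at 9.42, 5.83 and 4.06 FPKM and NLRP5 at 4.69, 3.79 and 1.94 FPKM, both lowest in replicate 3. NLRP2 was nearly level, at 3.32, 3.50 and 3.15 FPKM. ZBED3 was listed at 0 in all 3 controls. No member reached the 1000 highest genes, and the median rank of the 7 was 5290.

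Genes that clear maternal RNA showed a similar unevenness below BTG4. YTHDF2, a reader of N6-methyladenosine, lay at 119.8, 163 and 239 FPKM. Among deadenylase subunits, CNOT7 lay at 74.6, 61.0 and 142 and CNOT8 at 22.8, 27.3 and 31.2 FPKM, with CNOT7 higher in each control, while the scaffold CNOT1 lay at 15.5, 9.16 and 11.0 FPKM. The terminal uridylyltransferases that mark maternal RNA in the mouse were far apart, with TUT7 at 97.7, 58.7 and 107 FPKM and TUT4 at 0.712, 0.227 and 1.11 FPKM. TUT7 exceeded TUT4 by 97.1- to 259-fold. DCP2, the decapping enzyme, lay at 117, 73.2 and 103 FPKM, and 20 of 22 genes of this list had a mean of at least 1 FPKM.

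The genes linked to genome activation that were found all ranked above the median coding gene. All 17 members found had a mean of at least 1 FPKM, 5 were among the 1000 highest, and their median rank was 2191. EIF1AX, a translation initiation factor used as a marker of bovine EGA, lay at 452, 333 and 382 FPKM and was highest in control replicate 1. KLF17, a zinc finger factor active at EGA in human embryos, lay at 185, 378 and 515 FPKM, and ZSCAN4, a telomere-linked factor of cleavage embryos, at 91.1, 97.3 and 141 FPKM. DPPA2, a chromatin factor, lay at 40.5, 82.7 and 115 FPKM, and its partner DPPA4 at 10.4, 6.79 and 8.52 FPKM. KLF17, ZSCAN4 and DPPA2 were all lowest in replicate 1 and highest in replicate 3. The lowest member was NR5A2, a nuclear receptor, at 3.43, 1.52 and 2.25 FPKM. YAP1, a co-activator of the Hippo pathway, lay at 3.51, 2.80 and 3.62 FPKM. OTX2, a homeobox factor, lay at 3.99, 3.47 and 6.70 FPKM, and replicate 3 was the highest for it. The other 8 genes of the list, among them DUXA, LEUTX and KDM4E, were not analysed here, and the counts leave them out.

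Pluripotency factors were present at middle levels. KLF4 lay at 166, 36.4 and 49.96 FPKM, with control replicate 1 far above the others. PRDM14 lay at 50.2, 69.5 and 70.4 and ZFP42 at 35.1, 49.6 and 103 FPKM. POU5F1, the gene of OCT4, lay at 27.2, 31.7 and 36.0 FPKM, with replicate 3 the highest and replicate 1 the lowest. NANOG lay at 10.7, 4.98 and 14.2 FPKM, lowest in replicate 2. ESRRB was low, at 3.07, 2.08 and 1.62 FPKM, and TFCP2L1 was above 0 in replicate 2 only (0.202 FPKM). SOX2, TDGF1, FGF4 and UTF1 were not analysed here.

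Of 13 trophectoderm genes, which mark the outer layer of the blastocyst that forms the placenta, 10 (76.9%) had a mean of at least 1 FPKM, against 59.5% of all coding genes. Only TFAP2C ranked among the 1000 highest, at 141, 52.3 and 67.4 FPKM and rank 981. It was highest in control replicate 1. GATA3, a zinc finger factor, was nearly level at 4.94, 5.17 and 5.25 FPKM. EOMES, a T-box factor, lay at 14.0, 4.71 and 4.52 FPKM, highest in replicate 1. CDX2, which maintains trophectoderm, lay at 2.74, 2.61 and 0.816 FPKM, lowest in replicate 3. The epithelial keratins KRT8 and KRT18 lay at 0.371, 0.640 and 0.900 and at 1.53, 1.09 and 1.69 FPKM. ELF5 was above 0 in replicate 3 only (0.538 FPKM). The median rank of the list was 9054, below that of all coding genes (8424).

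Primitive endoderm genes had a median rank of 11527 over 10 genes, and 4 of them had a mean of at least 1 FPKM. GATA6 lay at 0.582, 1.61 and 1.37 FPKM and GATA4 at 0.577, 0.282 and 0.0615 FPKM. SOX17 and the laminin gene LAMA1 were listed at 0 in all 3 controls. The paper places the differentiation of trophectoderm and inner cell mass at the morula-to-blastocyst transition, later than the stage sampled here. Levels of the trophectoderm and primitive endoderm lists are therefore not read as numbers of lineage cells. Bulk values also do not show how a transcript was spread over the cells of an embryo.

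**Figure D3:**
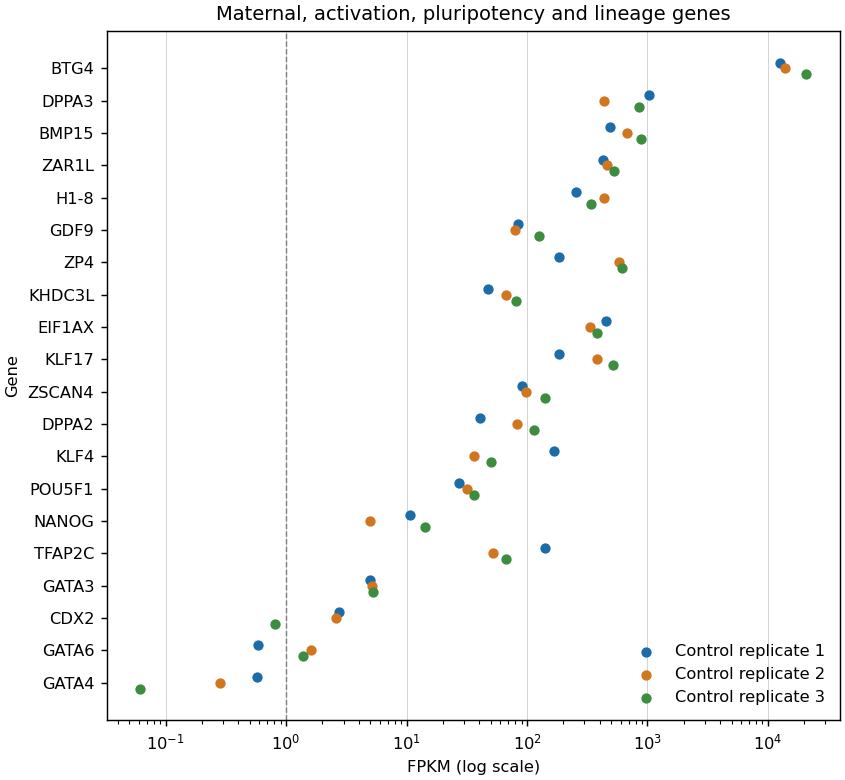
FPKM (x axis, log scale) of 20 genes chosen from the maternal, genome activation, pluripotency and lineage lists, with a point per control library. The chosen maternal genes, BTG4 to KHDC3L, and activation genes, EIF1AX to DPPA2, lie above 40 FPKM in every control. GATA4 lies under 1 FPKM, marked by the dashed line, in every control. Members of the same lists that are not drawn, such as NOBOX, DDX4 and NR5A2, lie under 40 FPKM in every control.

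The cell cycle list held some of the most abundant transcripts and some of the least. Its 47 genes carried 5.43%, 4.50% and 4.92% of coding FPKM, and 6 were among the 100 highest. AURKA, a kinase of the spindle poles, lay at 1626, 1848 and 1715 FPKM. CCNB1, the B-type cyclin of mitotic entry, lay at 896, 1033 and 1347 and BUB3, of the spindle checkpoint, at 583, 1343 and 1336 FPKM. Both were lowest in control replicate 1. CCNA2 lay at 379, 242 and 360.5 FPKM, while the germ line cyclin CCNA1 lay at 22.8, 23.0 and 46.4 FPKM. CDK1 lay at 113, 45.9 and 114 and CDK2 at 152, 203 and 219.6 FPKM.

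The G1 genes of the list differed widely in level. CCNE1, the cyclin of entry into S phase, lay at 89.3, 104 and 147 FPKM. CCND1, a D-type cyclin, was listed at 0 in all 3 controls. CCND3 lay at 0, 0.154 and 0.151 FPKM and CCND2 at 0.605, 0.639 and 0.775 FPKM. RB1, the retinoblastoma gene, lay at 1.36, 0 and 0.788 FPKM. CCND1, CCND2, CCND3 and RB1 were low in every control. The kinase inhibitors CDKN1A and CDKN1B lay at 3.64, 3.64 and 1.86 and at 2.38, 0.388 and 0.411 FPKM. Of the replication licensing genes, MCM6 lay at 43.1, 37.2 and 60.5 FPKM and MCM2 at 2.98, 3.14 and 1.40 FPKM.

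Of 21 pairs of related genes, chosen after their values were seen, 20 stood in the same order in all 3 controls. The count describes these chosen pairs only. Among B-type cyclins, CCNB1 exceeded CCNB2 by 8.12- to 9.10-fold. AURKA exceeded AURKB by 8.10- to 15.5-fold, CKS2 exceeded CKS1B by 3.06- to 4.52-fold, and CCNA2 exceeded CCNA1 by 7.77- to 16.6-fold. E-type cyclins were ordered the other way from their numbering, with a ratio of CCNE2 to CCNE1 of 0.0530 to 0.0943. HDAC2 and HDAC1, deacetylases of shared complexes, changed order between controls, with a ratio of 0.618 to 1.58.

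Histone variants and their chaperones were among the highest lists, with a median rank of 520 over 21 genes and 2.76%, 2.86% and 2.93% of coding FPKM. These shares were the most alike over the controls of the lists that carried over 2%. H2AZ1 exceeded H2AZ2 (982, 1027 and 952 FPKM) by 5.38- to 6.56-fold, and H3-3B exceeded H3-3A (1382, 704 and 836 FPKM) by 2.91- to 5.90-fold. SLBP2, the oocyte form of the histone mRNA stem-loop binding protein, lay at 200.2, 159 and 223 FPKM and exceeded SLBP by 2.67- to 3.60-fold. The assembly factors ASF1B and ASF1A lay at 130.3, 179 and 189 and at 141, 112 and 182 FPKM. HIRA, the H3.3 chaperone, was the lowest of the list at 1.06, 0.709 and 0.315 FPKM.

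**Figure D4:**
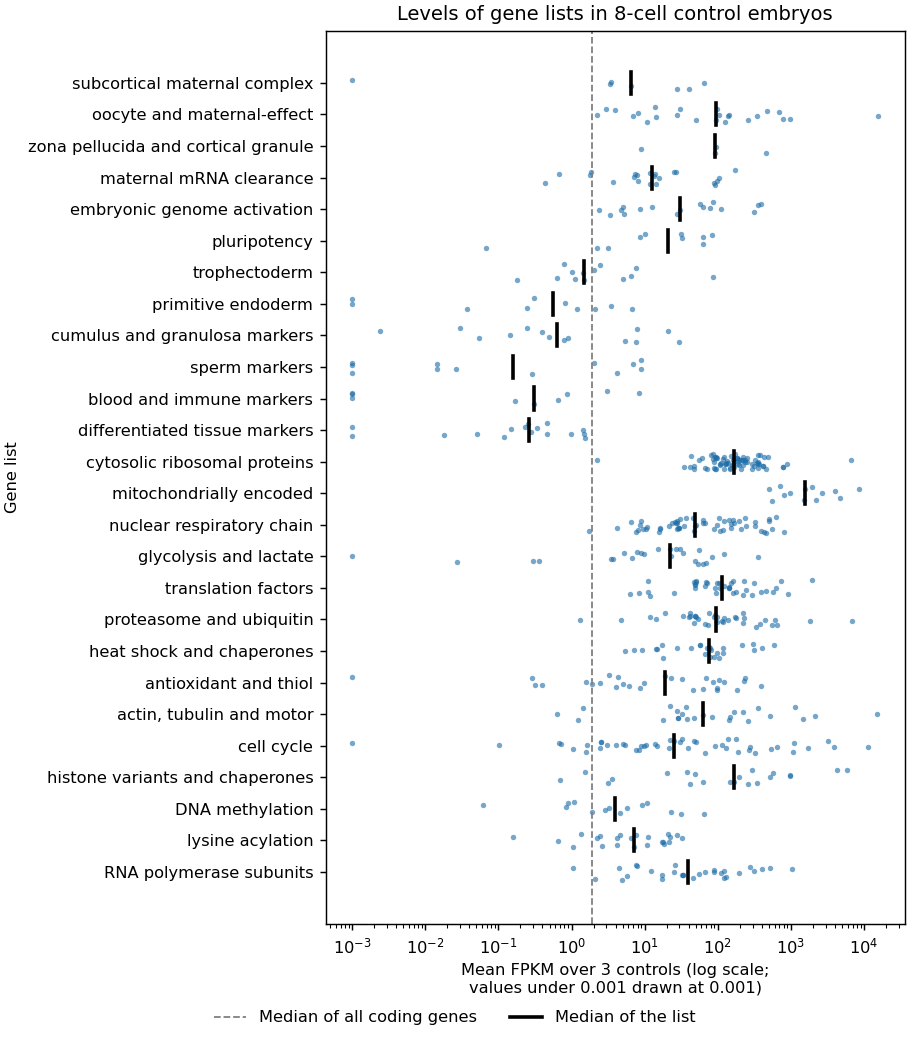
Mean FPKM over the 3 controls (x axis, log scale) of each member (blue point) of each gene list, with the list's median as a black bar and the median of all coding genes, 1.91 FPKM, as a dashed line. Mitochondrially encoded, ribosomal and histone variant lists sit farthest to the right. The medians of the trophectoderm, primitive endoderm, cumulus, sperm, blood and differentiated tissue lists lie to the left of the dashed line.

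Ribosomal protein genes were abundant with 1 exception. All 77 found had a mean of at least 1 FPKM and 65 were among the 1000 highest. FAU was far above the rest. RPS13 came next, at 1199, 596 and 847 FPKM, then RPS25 at 1095, 497 and 768 FPKM and RPS27A at 1055, 559 and 735 FPKM. Control replicate 1 was the highest in each of these. RPL22 was the lowest by a wide margin, at 1.99, 2.84 and 1.89 FPKM, while the next lowest, RPL37A, lay at 46.2, 28.0 and 31.0 FPKM.

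The ribosomal list differed regularly between the libraries. It carried 5.22%, 4.40% and 3.47% of coding FPKM, or 3.80%, 2.95% and 2.50% without FAU. Of 77 genes, 69 were highest in control replicate 1, 8 in replicate 2 and none in replicate 3. Scaling each library to the same sum over all genes (TPM) gave 59, 18 and none, and division by median ratios gave the same counts. By FPKM, replicate 1 was the highest for 47 of the 100 highest coding genes and for 315 of 900 at ranks 101 to 1000. Replicate 1 was also the library with the highest mitochondrial share, and whether these are linked was not tested.

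Translation factors shared the high level of the ribosome, with a median rank of 750 over 40 genes. EIF1 lay at 2252, 1614 and 1975 FPKM. EIF4E1B, an oocyte form of the cap-binding protein, lay at 759, 1004 and 952 FPKM, and EIF4E at 348, 355 and 661 FPKM. EIF4E1B was above EIF4E in every control, by 1.44- to 2.83-fold. EEF1A1, usually among the most abundant transcripts of somatic cells, lay at 79.2, 31.8 and 40.0 FPKM only, at rank 1508, and it belongs to a family with many processed pseudogenes. PABPC1, the poly(A)-binding protein, lay at 69.4, 49.8 and 26.6 FPKM, and EIF4G1, the scaffold of the cap complex, at 8.26, 5.98 and 4.59 FPKM.

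Proteasome and ubiquitin genes had a median rank of 905.5 over 38 genes and carried 1.98%, 3.65% and 2.67% of coding FPKM. Without UBB the shares were 1.38%, 1.33% and 1.53%. UBE2D3, a ubiquitin-conjugating enzyme, lay at 2279, 990.1 and 2266 FPKM, lowest in control replicate 2, and UBE2C, the conjugating enzyme of the anaphase-promoting complex, at 681, 599.7 and 633 FPKM. Proteasome core genes such as PSMA5 (479, 601 and 736 FPKM) and PSMB5 (510.4, 537 and 595 FPKM) followed. The deubiquitinase gene UCHL1 was the lowest, at 1.72, 0.599 and 1.61 FPKM.

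Chaperone genes were led by PTGES3, the HSP90 co-chaperone p23, at 492, 392 and 855 FPKM and by HSPA8, the constitutive HSP70, at 446, 319 and 438 FPKM. The inducible HSPA1A lay at 56.1, 71.9 and 43.5 FPKM, and HSPA8 exceeded it by 4.43- to 10.1-fold. HSPB1 lay at 4.49, 9.55 and 2.32 FPKM, the lowest of 28 genes, all of which had a mean of at least 1 FPKM.

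The 13 mitochondrially encoded genes made up 5.85% ± 1.99 (SD, n = 3) of coding FPKM, with 8.15%, 4.57% and 4.85% in control replicates 1, 2 and 3. Without replicate 1 the mean was 4.71%. All 13 were among the 1000 highest genes and 11 among the 100 highest, and 12 of 13 were highest in replicate 1. Of the 100 highest coding genes, these 11 included, 47 were highest in replicate 1. COX1 lay at 7558, 2875 and 3548 FPKM and ATP6 at 6075, 2737 and 3242 FPKM. ND6, encoded on the other strand, lay at 1535, 402 and 448 FPKM and was among the 10 most uneven of the 1000 highest genes. ND4L was the exception, at 797, 512 and 842 FPKM with replicate 3 the highest. Mitochondrial ribosomal and transfer RNA were highest in replicate 1 too, with 3.50%, 1.04% and 1.21% of all FPKM on the former and 2.18%, 0.593% and 0.850% on the latter.

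Nuclear genes of the respiratory chain lay lower, with a median rank of 1527.5 over 58 genes, and carried 1.78%, 1.44% and 1.45% of coding FPKM. NDUFB2 of complex I lay at 990.3, 601 and 806 FPKM and COX7A2 of complex IV at 861, 525 and 508 FPKM, and control replicate 1 was the highest for both. SDHA, the catalytic subunit of complex II, lay at 5.58, 7.25 and 6.69 FPKM. UQCR11 of complex III had the lowest mean, at 0.0738, 2.05 and 3.10 FPKM.

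Lactate and glucose metabolism is of interest in this study because lactate is the substrate of histone lactylation. LDHA, which reduces pyruvate to lactate and is the target of GSKA, lay at 231, 307 and 523 FPKM, the highest of the 25 glycolytic genes at rank 239. It was highest in control replicate 3 and lowest in replicate 1. LDHB lay at 80.7, 69.9 and 99.2 FPKM, and LDHA exceeded it by 2.87- to 5.27-fold. The glucose transporter SLC2A3 lay at 121, 111 and 135 FPKM and exceeded SLC2A1 by 4.95- to 6.06-fold. GAPDH, the usual reference gene, lay at 55.3, 52.8 and 60.4 FPKM.

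The phosphofructokinase genes, which serve the committed step of glycolysis, were low. PFKL was listed at 0 in all 3 controls. PFKM lay at 0, 0.871 and 0.195 FPKM and PFKP at 0.631, 0 and 0.260 FPKM, and each was at 0 in 1 control. The pyruvate kinase gene PKM lay at 5.21, 2.53 and 2.75 FPKM. For lactate transport, SLC16A1 lay at 22.2, 17.5 and 27.6 FPKM, its partner BSG at 15.9, 37.5 and 37.7 FPKM, and SLC16A3 was above 0 in replicate 3 only (0.0811 FPKM). The mitochondrial pyruvate carrier genes MPC1 and MPC2 lay at 47.3, 68.5 and 44.4 and at 29.6, 16.3 and 35.5 FPKM.

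Enzymes that add or remove acyl groups on lysine, lactyl groups among them, were of low to middle level, with a median rank of 5057 over 23 genes and none among the 1000 highest. The acetyltransferase gene EP300 lay at 28.1, 14.2 and 10.8 FPKM and its relative CREBBP at 12.4, 4.04 and 5.16 FPKM. Both were highest in control replicate 1. KAT7, another acetyltransferase gene, lay at 29.5, 19.2 and 17.5 FPKM. The deacetylase genes HDAC2 and HDAC1 were close, at 33.7, 19.6 and 42.8 and at 21.4, 31.7 and 31.0 FPKM. Of the sirtuins, SIRT3 lay at 13.8, 27.0 and 22.7 FPKM and SIRT1 at 24.2, 8.49 and 19.4 FPKM. AARS1, an alanyl-tRNA synthetase with reported lactyltransferase activity, lay at 3.54, 2.31 and 1.96 FPKM, and AARS2 at 0.206, 0 and 0.270 FPKM, the lowest of the list.

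DNA methylation genes were divided by role. The maintenance genes DNMT1 and UHRF1 lay at 27.7, 19.6 and 22.5 and at 69.6, 67.5 and 56.2 FPKM. The de novo methyltransferase genes DNMT3A and DNMT3B lay at 1.54, 0.901 and 0.269 and at 2.24, 1.95 and 1.56 FPKM, and DNMT1 exceeded DNMT3A by 18.0- to 83.3-fold. Of the dioxygenase genes that oxidize methylcytosine, TET1 was the highest, at 5.58, 5.08 and 6.51 FPKM. TET2 lay at 5.06, 1.96 and 1.63 FPKM, highest in replicate 1. TET3 lay at 1.33, 0.530 and 0.674 FPKM. TDG, the glycosylase that removes the oxidized bases, lay at 0, 0.0530 and 0.134 FPKM.

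RNA polymerase subunits spanned a wide range for parts of shared complexes. POLR3K lay at 732, 1389 and 954 FPKM and POLR2G at 482, 562 and 490.1 FPKM. The genes of the largest catalytic subunits lay far lower. POLR2A, of RNA polymerase II, lay at 7.33, 3.64 and 2.44 FPKM, highest in control replicate 1. POLR1A, of RNA polymerase I, lay at 2.94, 1.89 and 1.50 FPKM. POLR3A, of RNA polymerase III, was nearly level at 4.91, 4.91 and 4.94 FPKM. The small subunit gene POLR2K was uneven, at 619, 147 and 445 FPKM, a range of 4.22-fold.

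Antioxidant genes were led by SOD1, the cytosolic superoxide dismutase, at 388, 343 and 441 FPKM and by the glutathione transferase gene GSTM3 at 197, 262 and 255 FPKM. TXN, thioredoxin, was highest in control replicate 1, at 90.0, 16.9 and 30.0 FPKM. TXNRD2 was listed at 0 in all 3 controls, and the metallothionein genes MT1E and MT2A were above 0 in replicate 3 only, at 0.962 and 0.856 FPKM.

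Among cytoskeletal genes, PFN1 (profilin) lay at 1089.9, 2118 and 1181 FPKM and ACTB (beta-actin) at 421, 612 and 533 FPKM, and control replicate 2 was the highest for both. TMSB10, the relative of TMSB4X, lay at 2748, 2042 and 1728 FPKM and was exceeded by it 6.17- to 8.10-fold. DYNLL1, a dynein light chain, lay at 1520.4, 863 and 1083 FPKM. VIM, the intermediate filament gene of mesenchymal cells, lay at 0.893, 2.60 and 0.215 FPKM. Besides GAPDH, qRT-PCR was run in the series on MAT2A, DYNLRB1, RRAD and RARG. MAT2A, which makes S-adenosylmethionine, lay at 182, 101 and 124 FPKM, and DYNLRB1, a dynein light chain, at 55.2, 65.6 and 66.9 FPKM. RRAD, a small GTPase, lay at 3.43, 4.87 and 0.822 FPKM, and RARG, a retinoic acid receptor, was listed at 0 in all 3 controls.

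Genes listed at 0 in all 3 controls numbered 1155 (6.86% of coding genes). The files hold no gene at 0 in all 6 libraries, so each of these was above 0 in at least 1 GSKA library, and genes outside the files were not analysed here. A value of 0 can also be a failed estimate, and it is given here only as listed. No gene of the ribosomal, translation factor, proteasome, chaperone or mitochondrially encoded lists was at 0 in any control. NDUFA9, a subunit of complex I, was listed at 0 in replicate 1 and lay at 9.09 and 15.5 FPKM in the others. POLR3GL, an RNA polymerase III subunit, was listed at 0 in replicate 2. Genes under 0.1 FPKM in all 3 controls, the listed zeros included, numbered 1932.

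Markers of other cells that could have come with the embryos were mostly low. Of 14 cumulus and granulosa markers, 5 had a mean of at least 1 FPKM, and the list carried 0.0121%, 0.0136% and 0.0174% of coding FPKM in control replicates 1, 2 and 3. Its highest members were STAR, a cholesterol transporter, at 20.1, 29.6 and 40.3 FPKM and SERPINE2 at 18.4, 19.7 and 25.1 FPKM. HAS2, the hyaluronan synthase of the expanding cumulus, lay at 8.10, 3.84 and 4.06 FPKM. Some other members of this list were at or near 0. AMHR2 was above 0 in replicate 2 only (0.438 FPKM), CYP19A1 lay at 0, 0.0669 and 0.0983 FPKM, INHA was above 0 in replicate 3 only (0.0896 FPKM), and LHCGR in replicate 1 only (0.00715 FPKM). FSHR, FOXL2 and CYP11A1 were not analysed here. The part of such cells in the values of the oocyte list was not tested.

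Sperm markers had a median rank of 13896.5 over 12 genes. The protamine gene PRM1, the transition protein gene TNP1 and the outer dense fibre gene ODF1 were listed at 0 in all 3 controls. LDHC, the testis lactate dehydrogenase, lay at 9.58, 6.24 and 10.9 FPKM and ACRV1, an acrosomal protein gene, at 14.4, 8.09 and 4.15 FPKM. Blood and immune markers had a median rank of 12576, with PTPRC, TYROBP and HBM listed at 0, and the globin gene HBA at 12.8, 6.82 and 5.73 FPKM. Differentiated tissue markers had a median rank of 12826.5, and none of the 16 reached a mean of 2 FPKM. PECAM1, of endothelium, and TTR, of liver, were listed at 0 in all 3 controls.

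The spread between the controls depended on rank. Among ranks 1 to 100 the median CV over the 3 libraries was 23.7%, among ranks 101 to 1000 it was 24.5%, among ranks 1001 to 5000 29.9%, and among ranks 5001 to 10000 46.9%. The share of genes whose highest library lay within 2-fold of the lowest fell over the same bands, from 80.0% to 78.3%, 62.2% and 32.9%. Genes further down the ranking also had a longer genomic span, with medians of 3830, 9473, 19704 and 26369 bp from the first band to the last. The part of span in the ranks, and of span or depth in the spread, was not tested. Over all genes with a mean of at least 1 FPKM the median CV was 36.1%.

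**Figure D5:**
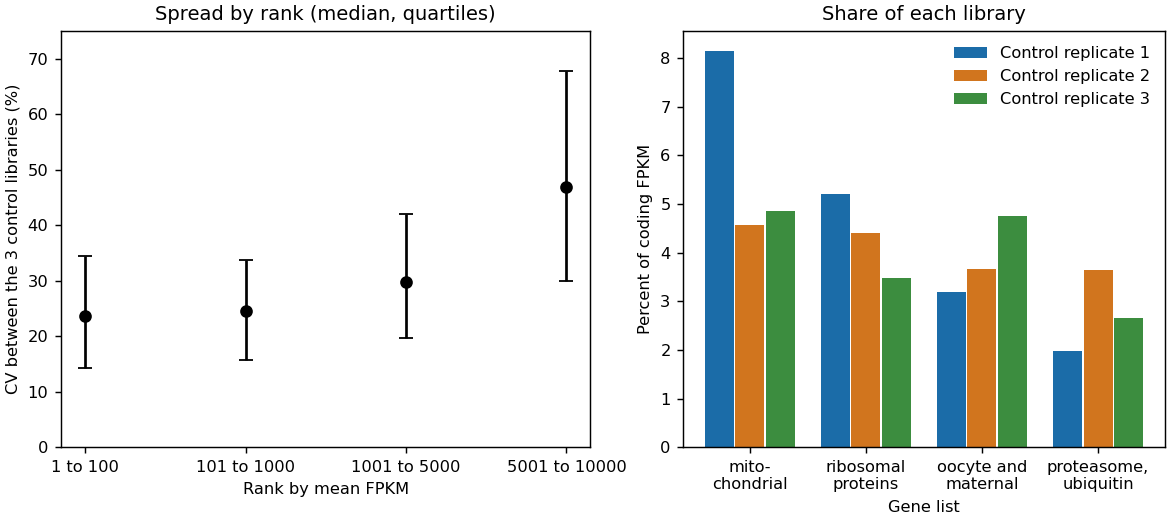
Left, the CV between the 3 controls (y axis, percent) in 4 bands of rank, as the median with bars from the lower to the upper quartile, which rises from 23.7% to 46.9%. Right, the percent of coding FPKM (y axis, from 0) that 4 gene lists carried in each control, with control replicate 1 highest for the mitochondrial and ribosomal lists and lowest for the others.

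Of the 1000 highest genes, the 10 most even had varied roles. GGNBP2 had the lowest CV, 0.968%, with 166, 166 and 169 FPKM. It was followed by CIB1, a calcium-binding protein gene, at 207, 203 and 208 FPKM and LAPTM4A, a lysosomal membrane protein gene, at 90.5, 92.8 and 94.3 FPKM. The highest in level of the 10 was the chromatin gene HMGB2, at 738, 780.4 and 753 FPKM. NEK2, a centrosomal kinase gene, lay at 126, 121 and 128 FPKM and EXOSC9, of the RNA exosome, at 97.6, 101.7 and 104 FPKM. The other 4 were RALA, a small GTPase gene, EBNA1BP2, CNIH4 and ENSBTAG00000023823, with CVs of 3.50%, 2.53%, 3.60% and 2.73%. These CVs were picked as the lowest of 1000 and carry no test.

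Of the 10 most uneven of the 1000 highest genes, 7 had no symbol. CIAO2A, of cytosolic iron-sulfur assembly, had the widest ratio, 6.29-fold, with 163, 25.9 and 85.8 FPKM. POLR2K and ND6 were the other named genes of the 10. The 7 genes listed by identifier only ranged from 3.68- to 5.93-fold, the widest being ENSBTAG00000046486 (chromosome 8, 39860311 to 39860607, minus strand) at 44.0, 215 and 36.3 FPKM. Control replicate 2 was the highest in 6 of these 7. ENSBTAG00000049688 (chromosome 18, 64848219 to 64850447) was the other, at 203, 572 and 827 FPKM with replicate 3 the highest.

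Genes found in a single control numbered 1989, of which 516 were in replicate 1, 630 in replicate 2 and 843 in replicate 3. Most were very low, and 320 reached 1 FPKM in the library that held them. The highest was ENSBTAG00000039849 (chromosome 18, 60682643 to 60684957, minus strand), at 118 FPKM in replicate 1 and listed at 0 in the others. GALNTL6, a glycosyltransferase gene, followed among genes with a symbol, at 13.0 FPKM in replicate 1. ISG15, the interferon-stimulated ubiquitin-like gene, lay at 8.12 FPKM in replicate 2 and was listed at 0 in replicates 1 and 3. The others of the 6 highest have no symbol. ENSBTAG00000050423 lay at 14.8 FPKM in replicate 2 and ENSBTAG00000051281 at 7.60 FPKM in replicate 3. ENSBTAG00000053759, on the same chromosome as ENSBTAG00000039849, lay at 7.34 FPKM in replicate 1.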

How the data were processed

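The series holds 6 RNA libraries of bovine 8-cell embryos, of which the 3 controls were used here. The authors' deposited values are FPKM per gene for 18862 genes, made with StringTie 1.3.4d after HISAT2 2.0.4 and cutadapt 1.9 according to the tool names in the submitters' processing notes, which also list edgeR. Libraries were made with the SMART-Seq v4 kit from polyadenylated RNA. For the genome build, none is stated in the sources used here. A deposited table of the authors' own comparison (fold, log2 fold, p-value and q-value) was not used.

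The 16847 genes typed as protein coding were ranked by mean FPKM over the 3 controls with Python 3.11.15, pandas 2.3.3 and numpy 2.4.6. The calculation of ranks, counts and CVs was checked on simulated data with the same CV for all genes and no missed genes. That check does not bear on detection or spread in these libraries. No test was run, since 1 group was described, and depth is unknown, because low values did not fall on whole multiples of 1 step from which reads could be recovered. Of 35 symbols on more than 1 locus, the highest locus was used. Counts and medians of a list cover only the members found, and no gene at 0 in all 6 libraries was among the genes given. The rule for named genes took the 20 highest genes, the 10 widest and 10 tightest of the 1000 highest, the 6 highest found in 1 library, the 4 genes around the edge of the 100 highest, and members from each of 27 gene lists. The rule for lists took up to 6 members with the highest and up to 3 with the lowest mean, and those at 0. The levels of 2 list members are not reported here. Other members, the pairs of related genes, and the genes named from families and pathways were chosen after their values were seen. The members and lists were chosen with earlier results of these data known. Alternatives covered the FPKM minimum, the definition of a gene at 0, the pseudocount, the scaling between libraries, the averaging and each library left out in turn.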

Additional observations from a re-analysis of the deposited data

How the results depend on the processing

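No paired analysis was possible because 1 group was described and no groups were compared. The 7 summaries of the ranking were recomputed under 51 alternatives. Coding genes at a mean of at least 5 FPKM numbered 5902, against 10022 at 1. Coding genes listed at 0 numbered 1155 in all 3 controls, 3144 in at least 2 of 3, and 1932 when values under 0.1 FPKM counted as 0. With 1 control left out the listed zeros numbered 1671 to 1998, the highest without replicate 3 and 1785 without replicate 2, since fewer libraries had to be at 0. The share of coding FPKM on the 100 highest genes was 38.0% without mitochondrially encoded genes and 40.1% with them. The median CV of 36.1% became 45.3% at a minimum of 0.1 FPKM, 29.8% at 5, 31.6% with 1 FPKM in every control and 50.5% with no filter, and 27.8% to 32.7% with 1 control left out, the lowest without replicate 1. The median SD of log2(FPKM + 1), 0.44, became 0.41 with 1 FPKM in every control, 0.38 with no filter, 0.52 with a pseudocount of 0.1, 0.28 with 5, 0.49 on the TPM scale and 0.34 to 0.40 with 1 control left out. With 1 control left out, the CV and SD rest on 2 libraries, over which they tend to be smaller than over 3. Their falls are therefore not read as an effect of the library left out. Of the 100 highest genes, 89 to 99 stayed under every alternative run. The 89 came from leaving out mitochondrially encoded genes, of which 11 were among the 100 highest, so no more could stay. Under the other alternatives 90 to 99 stayed. Of the 30 alternatives other than a left-out control, 17 left their summary within a set tolerance and 13 did not. The tolerance was 1.5-fold for counts and the SD over the controls for shares of FPKM. For the median CV and the median SD it was the SD of the values with 1 control left out, which rest on 2 libraries each.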

Other observations

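Gene families outside the lists differed in how many members were found. All 12 small nuclear ribonucleoprotein genes had a mean of at least 1 FPKM and 10 were among the 1000 highest, led by SNRPD1, a core spliceosomal protein gene, at 2419, 1803 and 1872 FPKM in control replicates 1, 2 and 3. Of 49 clustered histone genes, 46 (93.9%) reached 1 FPKM, and H2AC19 was the highest at 1132, 2157 and 1309 FPKM. Replicate 2 was the highest there, and near-identical copies in the histone clusters make the level of a single copy uncertain. Zinc finger genes with a ZNF symbol stood close to all coding genes, with 154 of 263 (58.6%) at 1 FPKM. HOX genes reached 1 FPKM in 12 of 31 cases (38.7%), with HOXA4 the highest at 8.39, 5.55 and 6.69 FPKM. Keratins reached it in 10 of 33 (30.3%), and interleukins and chemokines in 12 of 43 (27.9%). Of genes known by identifier only, 940 of 2298 (40.9%) reached it, against 59.5% of all coding genes, and 10 were among the 100 highest.

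Olfactory receptor genes, which are used by sensory neurons, had more of their members at 0 than the other families counted here. Of 105, 43 (41.0%) were listed at 0 in all 3 controls, against 6.86% of all coding genes, and 9 reached a mean of 1 FPKM. The files hold no gene at 0 in all 6 libraries. Both shares therefore leave out genes that were silent throughout the series. OR4X17 lay at 25.2, 39.7 and 32.9 FPKM. CCL25, a chemokine gene of the thymus and gut, lay at 128, 249 and 107 FPKM, the highest of its family and the single member among the 1000 highest. Both were found in every control.

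The pathway annotation in the files was counted over the 1000 highest genes. Of 6146 coding genes with a KEGG pathway, 8.66% were among them. The share was 60.1% for the ribosome (83 of 138 genes), 45.7% for the proteasome, 43.7% for the spliceosome, 41.4% for RNA polymerase, 34.8% for oxidative phosphorylation and 19.6% for oocyte meiosis. In 51 pathways no gene was among them. These included taste transduction, of whose 41 genes 9 had a mean of at least 1 FPKM, and also aminoacyl-tRNA biosynthesis, of whose 44 genes 38 did. Olfactory transduction had 5 of 137 genes among them. These shares are descriptions over 294 pathways of at least 20 genes and were not tested.

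FPKM carries no counts, so the precision of low values is unknown, and differences among genes near 1 FPKM or among listed zeros should be read with that in mind. The spread rests on 3 libraries of which replicate 1 stood apart in mitochondrial share. Copies of the same family and the unknown number of embryos in a library limit the levels further. Maternal and newly made RNA cannot be told apart in these values.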
